A study of Mus musculus with 15 samples.

Results

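Ceramides with very long acyl chains are the lipids that make the outer layer of the epidermis watertight, and 9 genes of their production and handling were followed here in mouse skin with and without OTULIN in keratinocytes. The members were chosen by symbol, as the rows named *Elovl4*, *Cyp4f39*, *Cers3*, *Pnpla1*, *Ugcg*, *Abca12*, *Alox12b*, *Aloxe3* and *Smpd1*, and they are 9 of the 55487 genes in the count table. Each symbol matched 1 row, and all 9 genes passed the filter on low counts in all 3 comparisons.

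As background, differentiating keratinocytes of the granular layer lengthen fatty acids, hydroxylate the far end of the chain, join it to a sphingoid base and attach linoleic acid to that end, which gives an acylceramide. The acylceramide is glucosylated, carried into lamellar bodies and secreted. Lipoxygenases oxidise the linoleate so that the lipid can be bound to the proteins of the cornified envelope, and the head groups are removed outside the cell to free ceramides. Loss of many of these genes causes ichthyosis, a scaling disorder with a leaky barrier, in people or mice.

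The libraries are QuantSeq 3′ mRNA libraries, which read from the poly(A) end of transcripts, made from whole skin of 3-week-old C57BL/6 mice. The 5 WT samples came from littermates that carry the *loxP*-flanked *Otulin* alleles without Cre. The OTULIN-KO mice are *Otulin* fl/fl *K14-Cre*, in which the keratin 14 promoter drives Cre in keratinocytes, so the other cells of the skin keep OTULIN. Their skin was taken as 5 non-lesional and 5 lesional samples, and the sources used here do not say which samples came from the same mouse. All groups thus carry floxed *Otulin*, and the p-values below measure the spread between these samples. Throughout, values by library are given in the order of the replicate numbers, which are 1, 4, 7, 10 and 13 for WT, 3, 6, 9, 12 and 15 for non-lesional, and 2, 5, 8, 11 and 14 for lesional skin. These numbers form 5 sets of consecutive numbers (1 to 3, 4 to 6 and so on), each with 1 library of every group, and what a set shares is not given in the sources used here. Libraries of a set tended to deviate together from their group means, though not in every pair, with a median correlation over genes of 0.18 against -0.054 between sets, so values with the set as a block, chosen after the data were seen, are given where they matter.

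Library totals ran from 1962604 to 2567138 counts with a median of 2347811. *Otulin* was read at 12.4 to 28.5 CPM (counts scaled to the normalized size of each library) in WT, 21.5 to 31.1 CPM in non-lesional and 19.2 to 27.5 CPM in lesional skin, so it did not separate the genotypes, and whether its counted 3′ end lies in the floxed part was not given in the sources used here. Keratinocytes were present in every library, with the summed level of 6 basal markers at 5716 to 11672 CPM and that of 21 granular and suprabasal markers at 13000 to 20749 CPM. Lesional libraries 2 and 11 stood apart from the rest. Their summed level of 8 hyperplasia markers such as *Krt6a* and *Krt16* was 14171 and 34803 CPM, against 672 to 2249 CPM in the other 13 libraries. That of the neutrophil list was 3024 and 5185 CPM, against 221 CPM in non-lesional 3, the library with the most *Elovl4*, and 1.70 to 21.2 CPM in the other 12. Of its 8 genes, 2 were at 0 in every library, 4 were at 0 in lesional 2 and 2 in lesional 11, and only *S100a8* and *S100a9*, which inflamed keratinocytes also make, passed the filter, in lesional against non-lesional skin alone. The other 3 lesional libraries had hyperplasia marker sums of 746 to 983 CPM, within the WT range. The lesional results of the members are therefore also given without lesional 2 and 11, a choice made after the data were seen.

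The members lie on 6 chromosomes of GRCm38. *Elovl4* is at chr9:83778692-83806277 on the minus strand, *Cers3* at chr7:66743504-66823691, *Cyp4f39* at chr17:32452723-32493320, *Ugcg* at chr4:59189257-59222833, *Abca12* at chr1:71242276-71414910 on the minus strand and *Smpd1* at chr7:105554360-105558389, the unmarked ones on the plus strand. The lipoxygenase genes are neighbours on the plus strand of chromosome 11, with *Aloxe3* at chr11:69125896-69149115 ending 7873 bases before *Alox12b* at chr11:69156989-69169792. *Pnpla1* at chr17:28858411-28890309 shares 644 exonic bases with the antisense gene *Pnpla1os*, and since the stated counting command sets no strand option, reads of the pair cannot be told apart.

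RefSeq (GRCm38.p6) gave a promoter for 8 of the 9 members, *Aloxe3* being the exception. The 250 bases before the start of *Cers3* and *Abca12* are shown because this pair of members had the highest correlation across the 15 libraries, and those of *Elovl4* because it had by far the most counts. They are chr7:66743254-66743503 on the plus strand, chr1:71414911-71415160 on the minus strand and chr9:83806306-83806555 on the minus strand, each 5′ to 3′, and capitals mark a match to CACCC or its reverse complement, a core bound by Krüppel-like factors.
Cers3: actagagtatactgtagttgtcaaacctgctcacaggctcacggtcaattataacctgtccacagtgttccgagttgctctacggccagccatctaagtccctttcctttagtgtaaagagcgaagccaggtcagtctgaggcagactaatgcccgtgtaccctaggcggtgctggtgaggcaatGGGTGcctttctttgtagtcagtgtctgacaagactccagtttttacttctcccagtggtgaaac
Abca12: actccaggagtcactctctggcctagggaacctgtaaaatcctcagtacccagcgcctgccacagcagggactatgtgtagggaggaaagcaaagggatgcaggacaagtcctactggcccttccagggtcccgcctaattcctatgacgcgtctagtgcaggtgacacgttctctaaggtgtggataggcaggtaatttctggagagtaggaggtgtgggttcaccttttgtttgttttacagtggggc
Elovl4: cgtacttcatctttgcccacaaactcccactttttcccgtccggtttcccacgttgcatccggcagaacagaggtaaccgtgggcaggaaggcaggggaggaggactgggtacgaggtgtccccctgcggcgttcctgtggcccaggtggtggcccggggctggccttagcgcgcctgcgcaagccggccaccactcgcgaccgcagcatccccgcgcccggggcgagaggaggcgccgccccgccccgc

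CACCC was present on either strand in 5 of the 8 member windows (*Alox12b*, *Cers3*, *Pnpla1*, *Smpd1* and *Ugcg*), and in 52% of 32851 RefSeq promoter windows of the same length. CCAAT was found in *Pnpla1* and *Smpd1*, 2 of 8, against 33.8% of all windows. None of the 8 held AACCNGTT, a Grainyhead-like site (1.79% of all windows), TGANTCA, an AP-1 site (6.75%), or TATAAA (12.4%), in each case searched on both strands. The single match in the windows shown overlaps none of the other motifs. GC content differed among the windows, at 49.6% for *Cers3*, 53.2% for *Abca12* and 69.6% for *Elovl4* against a median of 52.4% over all promoters.

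In WT skin *Elovl4* had the highest level of the members, 686 ± 144 CPM (SD, n = 5), and was followed by *Aloxe3* at 75.2 ± 18.3 CPM. The others were *Abca12* at 61.4, *Ugcg* at 51.2, *Alox12b* at 49.2, *Smpd1* at 48.0, *Cyp4f39* at 36.2, *Cers3* at 34.7 and *Pnpla1* at 19.6 CPM. Of neighbours in this order only *Elovl4* and *Aloxe3* had WT ranges that did not overlap, though *Smpd1* was above *Cyp4f39* and *Cers3* above *Pnpla1* in all 5 WT libraries. The other neighbours changed places between libraries. Levels are not divided by transcript length, since the 3′ protocol reads transcript ends. *Elovl4* alone made up 54.3% to 79.1% of the summed level of the members, depending on the library.

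**Figure D1:**
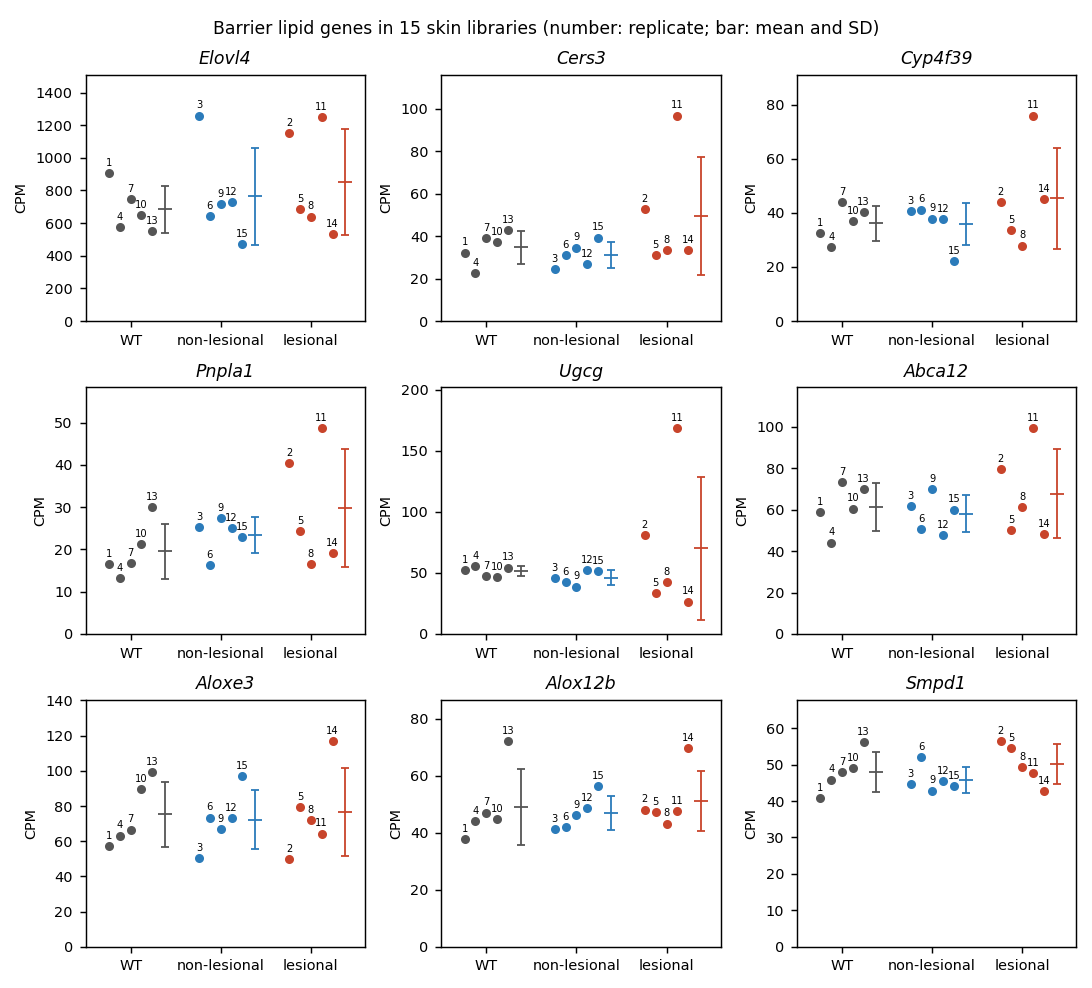
Level of each member in CPM (vertical axis, from 0, own scale per gene) in the 5 WT, 5 non-lesional and 5 lesional libraries, each point a library marked by its replicate number, with the mean and SD as a bar. Lesional 2 and 11 lie above all WT libraries for *Elovl4*, *Cers3*, *Pnpla1*, *Ugcg* and *Abca12*, and the other 3 lesional libraries lie among or below them.

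The comparison of non-lesional OTULIN-KO skin with WT asks whether these genes differ where no lesion is seen. None of the 9 members had an adjusted p under 0.05 in the edgeR quasi-likelihood test, where the same was true of 0 of 13021 genes (0%). At an unadjusted p under 0.05 no member was higher or lower, against 1.85% of all genes higher and 1.31% lower, and no member had groups that did not overlap, against 0.66% of all genes. DESeq2 called no member either and 1 gene in all. Log2 fold changes ran from -0.16 for *Cers3* to 0.25 for *Pnpla1*, 7 of 9 were below 0 and their median was -0.067, while the median over all genes was -0.0027 with 5% to 95% limits of -0.36 and 0.35.

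Between lesional and WT skin, again no member of 9 passed the adjusted test and neither did any of 12918 genes (0%). Unadjusted p-values under 0.05 were found for 0 members, against 3.24% of genes higher and 1.56% lower, and the groups overlapped for every member while they did not for 0.689% of genes. DESeq2 called 14 genes, none of them a member. All 9 log2 fold changes were above 0, from 0.02 for *Aloxe3* to 0.60 for *Pnpla1*, with a median of 0.31, beside a median of -0.0034 and 5% to 95% limits of -0.45 and 0.53 over all genes. Without lesional 2 and 11 the median of the members was -0.037 and 5 of 9 were below 0. *Ugcg* was then the only member with an unadjusted p under 0.05, on the lower side, against 1.51% of all genes lower and 1.42% higher, and 0% of genes passed the adjusted test.

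Lesional against non-lesional skin gave 0 of 9 members and 0 of 12864 genes (0%) with an adjusted p under 0.05, and DESeq2 called no gene. At an unadjusted p under 0.05, *Cers3* was the only member, on the higher side, against 2.89% of genes higher and 1.33% lower. The groups overlapped for all 9 members and did not for 0.622% of genes. Again all 9 values were above 0 with a median of 0.22 (all genes 0.0031), and without lesional 2 and 11 the median was -0.019 with 5 of 9 below 0. *Ugcg* alone then had an unadjusted p under 0.05, on the lower side, against 2.04% of all genes lower and 1.47% higher (adjusted 0%). The same shares apply to the other gene lists without lesional 2 and 11. The 3 comparisons share samples pairwise, so their values are not independent of each other.

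**Figure D2:**
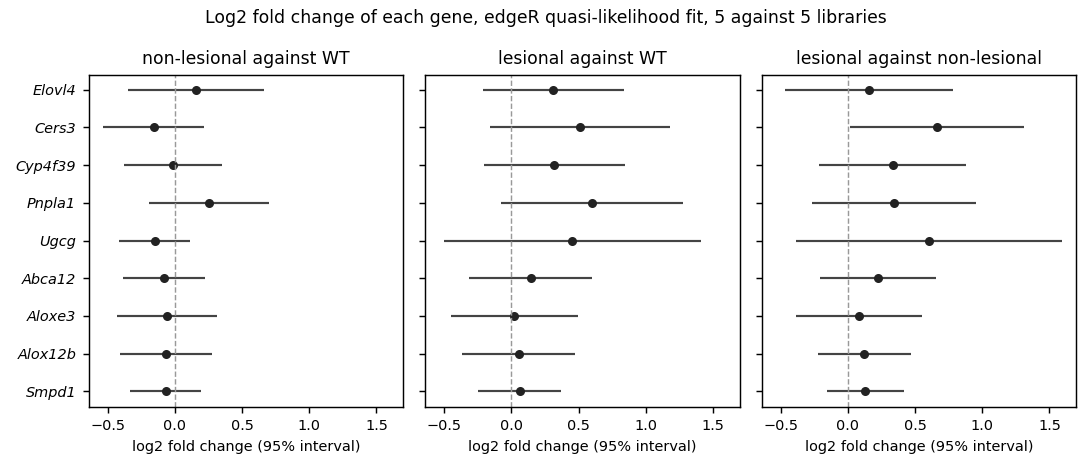
Log2 fold change of each member (horizontal axis) with its 95% interval in the 3 comparisons of 5 against 5 libraries, from the edgeR fit, with a dashed line at 0. All intervals span 0 except that of *Cers3* in lesional against non-lesional skin, which runs from 0.01 to 1.31 and has an adjusted p of 0.973.

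*Elovl4* encodes the elongase that builds the ultra-long fatty acids of acylceramides. Its levels were 905, 575, 746, 651 and 552 CPM in WT, 1259, 644, 719, 727 and 469.9 CPM in non-lesional and 1152, 686, 639.7, 1251 and 531 CPM in lesional skin. A single non-lesional library (3) reached the height of lesional 2 and 11, and the lowest of all 15 was also non-lesional (15). The log2 fold change was 0.31 (SE 0.24, 95% interval -0.21 to 0.84, adjusted p = 0.930 by edgeR) for lesional against WT and 0.16 (SE 0.23, adjusted p = 0.9998) for non-lesional against WT. The lesional value was -0.15 (95% interval -0.52 to 0.22) without lesional 2 and 11. The spread of *Elovl4* was far above counting error, with a coefficient of variation of 21.01% in WT, 38.7% in non-lesional and 38.2% in lesional skin where counting alone gives 2.36% to 2.46%.

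*Cyp4f39* encodes the hydroxylase of the far end of those chains. It stood at 32.6, 27.4, 43.9, 37.1 and 40.2 CPM in WT and at 40.5, 41.2, 37.9, 37.7 and 22.1 CPM in non-lesional skin, which is a near complete overlap. Lesional libraries had 44.0, 33.7, 27.9, 76.0 and 45.1 CPM, of which only number 11 was well above the rest. For lesional against WT the log2 fold change was 0.32 (SE 0.25, 95% interval -0.21 to 0.85, edgeR adjusted p = 0.928), and it was -0.037 without lesional 2 and 11. Against WT the non-lesional value was -0.013 (SE 0.18).

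*Cers3*, the ceramide synthase that joins ultra-long fatty acids to the sphingoid base, had 32.2, 22.5, 38.9, 37.1 and 42.9 CPM in WT and 24.3, 30.9, 34.6, 26.7 and 39.3 CPM in non-lesional skin. In lesional skin it had 52.7, 31.1, 33.5, 96.7 and 33.4 CPM. Lesional 2 and 11 were above every WT and non-lesional library, and the other 3, at 32.7 ± 1.35 CPM (SD, n = 3), were in the middle of them. The largest difference was between lesional and non-lesional skin, with a log2 fold change of 0.66 (SE 0.30, 95% interval 0.01 to 1.31), an unadjusted p of 0.0456 and an adjusted p of 0.973 by edgeR. DESeq2 gave an unadjusted p of 0.0361 and an adjusted p of 0.99. With the sets of consecutive numbers as a block, the edgeR value was 0.55 with an unadjusted p of 0.115 and an adjusted p of 0.834. The value was 0.069 (95% interval -0.34 to 0.47) without lesional 2 and 11. Against WT the log2 fold change was 0.51 (SE 0.31) for lesional and -0.16 (SE 0.18) for non-lesional skin, and the former was -0.093 without the same libraries.

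*Pnpla1* encodes the transacylase that attaches linoleic acid, and it was the member with the fewest counts, 30 to 96 per library. The levels were 16.5, 13.2, 16.7, 21.3 and 29.99 CPM in WT, 25.2, 16.3, 27.5, 25.1 and 23.0 CPM in non-lesional and 40.4, 24.4, 16.6, 48.6 and 19.1 CPM in lesional skin. It had the largest fold change against WT in both comparisons, 0.25 (SE 0.21, 95% interval -0.19 to 0.70) for non-lesional and 0.60 (SE 0.31, 95% interval -0.08 to 1.28) for lesional skin, with adjusted p of 0.9998 and 0.926 by edgeR. The latter was 0.016 (95% interval -0.55 to 0.59) without lesional 2 and 11.

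*Ugcg* encodes the glucosyltransferase that turns ceramide into glucosylceramide, and it had the most uneven levels of the members in lesional skin. WT libraries were close together at 52.2, 55.6, 47.5, 46.5 and 54.3 CPM, a coefficient of variation of 7.94% where counting alone gives 9.01%. Non-lesional libraries had 45.5, 42.5, 38.7, 52.3 and 51.7 CPM. Lesional libraries had 80.7, 33.2, 42.4, 168 and 26.5 CPM, a coefficient of variation of 83.5%. Number 11 was 6.35 times number 14, and no lesional library fell within the WT range, since numbers 2 and 11 were above all 5 WT libraries and numbers 5, 8 and 14 below all 5. Lying below the narrow WT range was not particular to lesional skin, since non-lesional numbers 3, 6 and 9 were also below all 5.

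The means of *Ugcg* were 51.2 ± 4.07 CPM in WT, 46.1 ± 5.84 CPM in non-lesional and 70.2 ± 58.6 CPM in lesional skin (SD, n = 5 each). Lesional against WT gave a log2 fold change of 0.45 (SE 0.44, 95% interval -0.50 to 1.41, adjusted p = 0.937 by edgeR). With the sets as a block and all libraries it was 0.12 (adjusted p = 0.971 by edgeR). On the remaining 3 lesional libraries the value was -0.59 (SE 0.19, 95% interval -0.98 to -0.19), with an unadjusted p of 0.00616 and an adjusted p of 0.999 by edgeR. Against non-lesional skin the corresponding values were 0.60 (SE 0.45) with all libraries and -0.43 (SE 0.19, unadjusted p = 0.0337, adjusted p = 0.993 by edgeR) without lesional 2 and 11.

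*Abca12*, the transporter that loads glucosylceramide into lamellar bodies, had 58.9, 44.1, 73.3, 60.5 and 69.9 CPM in WT and 61.7, 50.7, 70.0, 47.8 and 60.1 CPM in non-lesional skin. The lesional libraries had 79.8, 50.3, 61.4, 99.3 and 48.1 CPM. As for *Cers3*, numbers 2 and 11 were the highest of all 15, but by a smaller step. The log2 fold change of lesional against WT was 0.14 (SE 0.21, 95% interval -0.31 to 0.60, edgeR adjusted p = 0.954), and it was -0.21 without them. For non-lesional against WT it was -0.080 (SE 0.15).

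*Alox12b* and *Aloxe3* encode the lipoxygenases that act in sequence on the linoleate of acylceramide. *Aloxe3* had 57.3, 63.1, 66.5, 89.5 and 99.5 CPM in WT, 50.4, 73.4, 67.0, 73.3 and 97.2 CPM in non-lesional and 49.98, 79.4, 71.9, 64.3 and 117 CPM in lesional skin. Here lesional 2 was the lowest of all 15 libraries and lesional 14 the highest, whereas for *Ugcg* number 14 was the lowest and numbers 11 and 2 the highest. *Alox12b* ranged from 37.7 to 72.1 CPM in WT, from 41.4 to 56.5 CPM in non-lesional and from 43.2 to 69.7 CPM in lesional skin.

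Both lipoxygenase genes had small differences between groups. For lesional against WT the log2 fold change was 0.02 (SE 0.22, 95% interval -0.45 to 0.49) for *Aloxe3* and 0.06 (SE 0.20, 95% interval -0.36 to 0.47) for *Alox12b*. The values without lesional 2 and 11 were 0.24 and 0.11. The ratio of *Aloxe3* to *Alox12b* within a library lay between 1.04 and 2 over all 15 libraries.

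*Smpd1* encodes acid sphingomyelinase, which releases ceramide from sphingomyelin and, like that of *Ugcg*, its product is used by many cell types. Its levels ranged from 40.8 to 56.2 CPM in WT, from 42.9 to 52.0 CPM in non-lesional and from 42.7 to 56.4 CPM in lesional skin. Its coefficient of variation, 7.79% to 11.6% by group, was close to the 9.31% to 9.70% that counting alone gives. The log2 fold change was -0.067 (SE 0.13, 95% interval -0.33 to 0.20) for non-lesional and 0.061 (SE 0.15, 95% interval -0.25 to 0.37) for lesional skin against WT. Leaving out lesional 2 and 11 gave 0.019 for lesional skin.

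**Figure D3:**
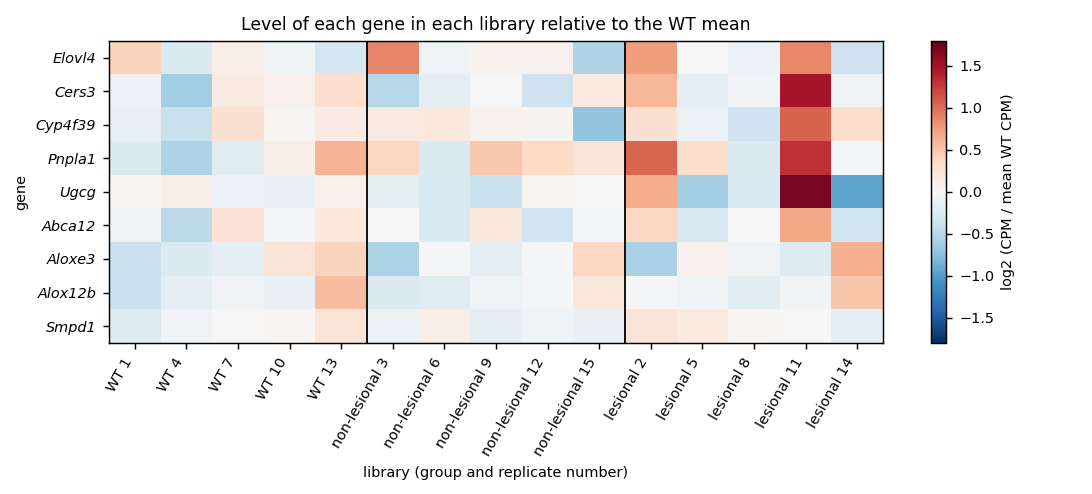
Log2 of each library's CPM over the mean WT CPM for the 9 members (rows) in the 15 libraries (columns), red above and blue below the WT mean, with lines between the groups. Lesional 11 is red for *Elovl4*, *Cers3*, *Cyp4f39*, *Pnpla1*, *Ugcg* and *Abca12*, while *Aloxe3*, *Alox12b* and *Smpd1* are near the WT mean there.

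Markers of other cell types were also read in lesional 2 and 11. Basal keratinocyte markers summed to 7722 and 11672 CPM there, against 5716 to 7463 CPM in the other 13 libraries. By gene the list was mixed in lesional against WT skin, with log2 fold changes of 1.36 for *Krt14* and 0.29 for *Krt5* and the other 4 of 6 below 0, from -0.56 (*Krt15*) to -0.049 (*Itga6*). Granular and suprabasal markers, from the layer in which most members are used, summed to 17732 and 18418 CPM, against 13000 to 20749 CPM. That sum does not stand for each gene of the list, since in lesional against WT skin 14 of the 20 tested had a log2 fold change above 0 and 6 below 0. Among its abundant genes, *Krt10* (-0.49), *Krt77* (-0.40) and *Lor* (-0.32) were below 0. *Klk7*, a protease of the cornified layer, was above 0, at 1766 ± 1511 against 798 ± 196 CPM (SD, n = 5 each; log2 fold change 1.15, SE 0.51), and had -0.15 (SE 0.20) without lesional 2 and 11. The basal and granular genes named here were chosen after their values were seen. Fibroblast markers were at 27315 and 16563 CPM (others 26190 to 68400 CPM) and skeletal muscle markers at 15251 and 3553 CPM (others 15161 to 34331 CPM), so that only lesional 11 was outside the range of the others. Macrophage markers, at 679 and 729 CPM, were inside the range of the others, 376 to 797 CPM. That sum does not stand for each gene either. In lesional against WT skin 2 of the 9 were higher and 0 lower at an unadjusted p under 0.05 by edgeR. The shares over all genes were 3.24% and 1.56%. Log2 fold changes of the list ran from -0.17 to 1.19, with 6 above 0 and 3 below. Without lesional 2 and 11, *Aif1* alone was higher against WT (0.83, SE 0.30), beside 1.42% of all genes, and 0 were lower. The part of these cell types and of the hyperplasia and neutrophil markers in the levels of the members was not tested. In whole skin, fewer cells of a type and less RNA per cell cannot be told apart.

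Across the 15 libraries the members did not move as one. Over the 36 pairs, Pearson's r of log2 CPM ran from -0.81 to 0.85 with a median of 0.27. It was above 0.7 for 6 pairs and below 0 for 7. The highest was *Cers3* with *Abca12* (r = 0.85, Spearman's rho = 0.77), and *Cers3* with *Ugcg* (r = 0.75), *Cers3* with *Pnpla1* (r = 0.74), *Abca12* with *Pnpla1* (r = 0.72) and *Abca12* with *Ugcg* (r = 0.70) were in the same group. The neighbouring lipoxygenase genes had r = 0.75 (rho = 0.55). The lowest was *Elovl4* with *Aloxe3* at r = -0.81 (rho = -0.78). Libraries of the same mouse cannot be identified here and all points share the normalization, so these values are given as a description.

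Most of the high correlations rested on lesional 2 and 11. Over the other 13 libraries *Cers3* with *Ugcg* had r = -0.06, *Abca12* with *Ugcg* had 0.21 and *Cers3* with *Pnpla1* had 0.30. The median of the 36 pairs was 0.15 and 1 pair stayed above 0.7. That pair was *Alox12b* with *Aloxe3*, at r = 0.84 (rho = 0.77). *Cers3* with *Abca12* had r = 0.67 and *Elovl4* with *Aloxe3* had r = -0.82 (rho = -0.75) over the same 13 libraries.

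In some sets of consecutive numbers the libraries had like levels. *Elovl4* had 905, 1259 and 1152 CPM in libraries 1, 3 and 2, and 552, 469.9 and 531 CPM in 13, 15 and 14. *Aloxe3* ran the other way, with 57.3, 50.4 and 49.98 CPM against 99.5, 97.2 and 117 CPM in the same libraries. Not every set was alike, since libraries 10, 12 and 11 had 651, 727 and 1251 CPM of *Elovl4* and 89.5, 73.3 and 64.3 CPM of *Aloxe3*, so that *Elovl4* was read higher in lesional 11 than in the other libraries of its set. After group and set means were removed over all 15 libraries, r was -0.63 for *Elovl4* with *Aloxe3* and -0.22 for *Alox12b* with *Aloxe3* (-0.81 and 0.75 before). The lowest was *Aloxe3* with *Ugcg* at -0.89 (-0.43 before). *Cers3* with *Abca12* then had r = 0.95 and *Cers3* with *Ugcg* had 0.82. These values include lesional 2 and 11 and rest on sets with 1 library of each group. Whether the lipoxygenase pair varies together within sets therefore cannot be told.

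**Figure D4:**
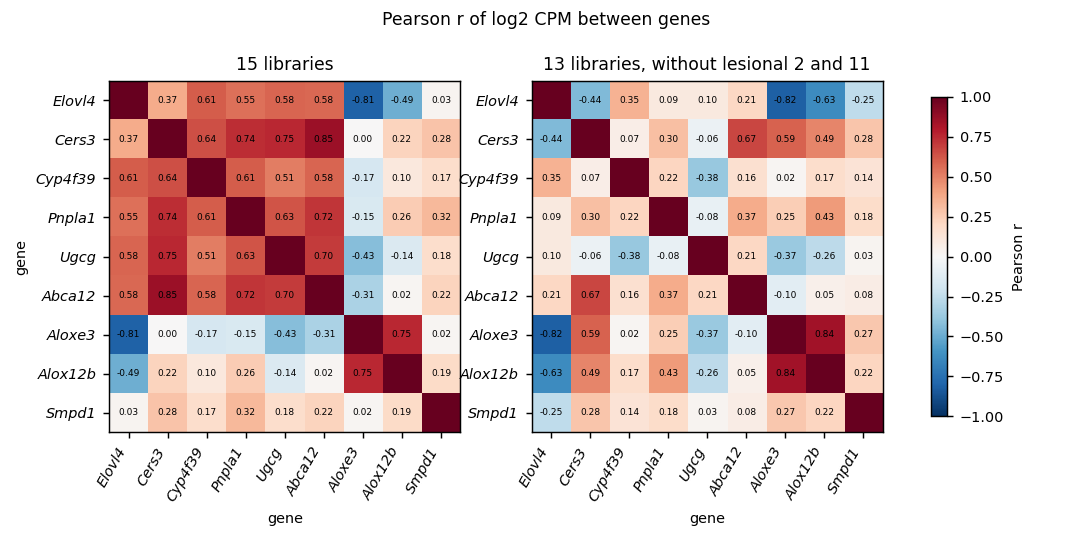
Pearson's r of log2 CPM for each pair of members over all 15 libraries (left) and over the 13 without lesional 2 and 11 (right), red positive and blue negative. The block of red among *Cers3*, *Cyp4f39*, *Pnpla1*, *Ugcg* and *Abca12* fades on the right, while *Alox12b* with *Aloxe3* and *Elovl4* with *Aloxe3* keep values of 0.84 and -0.82.

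The mean log2 CPM of the 9 members was 5.90 ± 0.20 in WT, 5.88 ± 0.04 in non-lesional and 6.09 ± 0.38 in lesional skin (SD, n = 5 each). By library the lesional values were 6.29, 5.85, 5.79, 6.67 and 5.87, so that those of 2 and 11 were the highest. Of 13452 other genes that passed the filter over 15 libraries, the 10 with the highest Pearson's r with this mean were *Gm48840*, *Alox12e*, *Csta1*, *Casp14*, *Il1f5*, *Macc1*, *Adam8*, *Calm4*, *Myd88* and *Ebp*, with r from 0.93 to 0.94. *Alox12e*, an epidermal lipoxygenase gene, had r = 0.94 (rho = 0.89), and 0.87 over the 13 libraries without lesional 2 and 11. Over those 13 libraries the other 9 genes had r of 0.60 to 0.71.

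Other genes of the acylceramide and lipid envelope were examined as a list of 15, all tested. At an unadjusted p under 0.05, 1 was higher and 0 lower in non-lesional skin against WT, 2 higher and 0 lower in lesional skin against WT, and 1 higher and 0 lower in lesional against non-lesional skin, with medians of 0.10, 0.31 and 0.24, and none passed the adjusted test. In non-lesional skin the gene was *Tgm1*, the transglutaminase of the envelope, at 10.4 ± 2.50 against 6.15 ± 3.13 CPM in WT (log2 fold change 0.74, SE 0.32, unadjusted p = 0.0323, adjusted p = 0.9998 by the edgeR quasi-likelihood test). In lesional skin these were *Sult2b1*, which makes cholesterol sulfate, at 21.1 ± 7.96 against 12.9 ± 4.13 CPM (0.69, SE 0.29), and *Abhd5*, a cofactor of PNPLA1, at 75.0 ± 21.6 against 55.1 ± 11.2 CPM (0.44, SE 0.21). Without lesional 2 and 11 the values were 0.26 for *Sult2b1* and 0.18 for *Abhd5*, 0 genes of the list had an unadjusted p under 0.05 and the median was 0.027 against WT and -0.026 against non-lesional skin.

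Of 33 genes of general sphingolipid synthesis and turnover, 31 were in the table and 30 were tested. No gene had an unadjusted p under 0.05 in non-lesional skin against WT, and in lesional skin 2 were higher and 1 lower, with medians of 0.02 and -0.02. The lower one was *Psap*, the precursor of the saposins that help to cleave glycosylated ceramides, at 104 ± 19.1 CPM against 158 ± 26.4 CPM in WT (log2 fold change -0.60, SE 0.16, unadjusted p = 0.00209, adjusted p = 0.926 by the edgeR quasi-likelihood test). Its value was -0.56 (SE 0.16) when lesional 2 and 11 were left out, and against non-lesional skin it was -0.58 (SE 0.19) with all libraries and -0.53 (SE 0.19) without these. Without them 0 genes of the list were higher and 1, *Psap*, lower in either comparison, with medians of -0.072 against WT and -0.098 against non-lesional skin. Of the higher ones, *Sptlc1*, a subunit of the enzyme of the first step, was at 105 ± 23.4 against 80.6 ± 11.9 CPM (0.38, SE 0.17, and 0.16 without lesional 2 and 11). In lesional against non-lesional skin 1 gene was higher, *Degs2* (1.04, SE 0.47, and -0.065 without lesional 2 and 11), and 1 lower, *Psap*.

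Transcription factors of the barrier programme (20 genes, 19 tested, the other at 0 in every library) had no gene with an unadjusted p under 0.05 in non-lesional skin and 3 higher and 0 lower in lesional skin against WT, with medians of 0.02 and 0.05. The 3 were *Ppard*, a lipid-sensing nuclear receptor (0.79, SE 0.30), *Grhl3* of the Grainyhead-like family (1.01, SE 0.46) and *Zfp750* (0.64, SE 0.29), all of which had adjusted p-values of 0.926 by edgeR. Leaving out lesional 2 and 11 gave 0.26, 0.14 and 0.097 on the log2 scale, and the list then had a median of -0.053 with 0 higher and 1 lower, *Prdm1* (-0.45, SE 0.19), which is named because it is the only one. In lesional against non-lesional skin 1 was higher, *Ppard* (0.67, SE 0.29, and 0.16 without the same libraries).

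Granular and suprabasal markers (22 genes, 21 in the table, 20 tested) had 0 higher and 1 lower at an unadjusted p under 0.05 in non-lesional against WT skin, 5 higher and 0 lower in lesional against WT, and 5 higher and 0 lower in lesional against non-lesional skin, with medians of 0.02, 0.19 and 0.07. The 5 higher ones in lesional against WT skin were *Klk7*, given above, and *Dsc1*, *Casp14*, *Flg* and *Krt1*, with log2 fold changes of 0.71, 1.29, 1.12 and 0.68, and of 0.23, 0.052, 0.13 and 0.15 without lesional 2 and 11. The lower one in non-lesional skin was *Tgm3*, a transglutaminase, at 13.1 ± 5.05 against 24.4 ± 8.04 CPM in WT (log2 fold change -0.90, SE 0.28, unadjusted p = 0.00515, adjusted p = 0.9998 by the edgeR quasi-likelihood test). When lesional 2 and 11 were left out, 0 of the 20 had an unadjusted p under 0.05 against WT and 1, *Tgm3* (0.74, SE 0.28), was higher against non-lesional skin. Against WT the median of the list was then 0.020 beside -0.0073 for all genes and -0.037 for the members.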

How the data were processed

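Members and gene lists were chosen with earlier results of these data known. The authors clipped adaptors with cutadapt 2.10, mapped QuantSeq reads with subread-align to GRCm38, kept unique matches with SAMtools 1.7-2 and deposited raw counts per gene from featureCounts 2.0.1, in which a match over several genes counted for each. The counting command names no strand option, for which the tool ignores strand, and the annotation release is not given in the sources used here. The deposited CPM were not used. PCR copies were not removed, so counts are not independent molecules. The 92 spike-in rows sum to 0 and were left out.

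Each pair of groups was fitted with edgeR 4.0.16 in R 4.3.3 (TMM, filterByExpr, robust quasi-likelihood F-test, Benjamini-Hochberg over all genes, threshold 0.05) and the procedure was tested on simulated data. Standard errors were derived from the F statistic, as log2 fold change (absolute) divided by its square root. CPM are TMM-normalized over 15 libraries, log2 CPM have a prior count of 2. Alternatives included DESeq2 1.42.0, other normalizations and filters, leaving out libraries, and a block of consecutive replicate numbers. Positions are from GENCODE (GRCm38), promoters from RefSeq. All members were named. From other lists at most 4 genes with the smallest p in a comparison were planned, but 5 granular and suprabasal markers were named for lesional against WT skin. Further basal and granular genes were named after their values were seen. With 14 lists in all, those of sebaceous gland, hair follicle and adipocyte markers are given in the closing section. Replicate libraries of a group differed by more than sampling noise (chi-square per degree of freedom at least 3.83). A result of the sphingolipid list is not reported here.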

Additional observations from a re-analysis of the deposited data

Results flagged for a closer look

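Each member, and the library total, was examined in each group of 5 libraries for a library far from the rest by Dixon's criterion, 30 groups in all, and 2 were met, where chance gives about 5% of groups. *Cyp4f39* was lowest in non-lesional 15 at 22.1 CPM, while the other 4 non-lesional libraries had 37.7 to 41.2 CPM. *Alox12b* was highest in lesional 14 at 69.7 CPM, while the other 4 lesional libraries had 43.2 to 48.1 CPM, and lesional 14 was also the library with the highest *Aloxe3*. WT 13 had 72.1 CPM of *Alox12b*, so the lesional value lies within the range of all libraries. Sets of consecutive numbers were not taken into account here, and WT 13 and lesional 14 are of the same set of consecutive numbers.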

How the results depend on the processing

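Under 7 settings with all libraries (DESeq2, DESeq2 size factors, upper quartile normalization, no filter, a minimum of 10 counts per library, a joint fit of the 15 libraries, no robust estimation), none of 189 values of the members reversed, and the largest move was 0.059 on the log2 scale. Over all 504 alternative values none was called, with a lowest adjusted p of 0.632, and 31 reversed. Without lesional 2 and 11 the median of the members against WT was -0.037, and the reversed values were -0.15 for *Elovl4*, -0.093 for *Cers3*, -0.21 for *Abca12*, -0.037 for *Cyp4f39* and -0.59 for *Ugcg* against WT, and -0.30 for *Elovl4*, -0.12 for *Abca12*, -0.23 for *Pnpla1*, -0.019 for *Cyp4f39* and -0.43 for *Ugcg* against non-lesional skin. Leaving out 1 library at a time gave, for non-lesional against WT, -0.10 to 0.29 for *Elovl4*, -0.15 to 0.12 for *Alox12b*, -0.19 to 0.066 for *Aloxe3*, -0.096 to 0.12 for *Cyp4f39* and -0.12 to 0.029 for the median. For lesional against WT it gave -0.080 to 0.23 for *Alox12b*, -0.18 to 0.14 for *Aloxe3*, -0.031 to 0.24 for *Abca12*, -0.16 to 0.66 for *Ugcg* and 0.081 to 0.40 for the median. For lesional against non-lesional skin it gave -0.021 to 0.43 for *Elovl4*, -0.014 to 0.20 for *Alox12b*, -0.12 to 0.21 for *Aloxe3*, -0.0082 to 0.81 for *Ugcg* and 0.099 to 0.39 for the median. Genes called in all numbered 0 by edgeR in each comparison. In non-lesional against WT skin they numbered 1 by DESeq2, 18 without a filter and 0 to 5 with 1 library left out (5 without non-lesional 6), and in lesional against WT skin 14 by DESeq2. The cause was not tested. Counts of 30 to 96 per library limit what can be seen for *Pnpla1*. The groups share no replicate numbers. With sets of consecutive numbers as a block, chosen after the data were seen, none of 27 values of the members was called or reversed, the lowest unadjusted p was 0.0934, and 8 genes in all were called in non-lesional against WT skin. By correlation of deviations, 5 of 5 WT libraries were closest to the non-lesional library of their set and 2 of 5 to its lesional library, and 5 of 5 non-lesional libraries to its lesional library.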

Other observations

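The ratio of *Ugcg* to *Aloxe3* within a library, which is free of the normalization, was 0.52 to 0.91 in WT and 0.53 to 0.90 in non-lesional skin. In lesional skin it was 1.61 in library 2, 0.42 in 5, 0.59 in 8, 2.61 in 11 and 0.23 in 14, so 4 of 5 lesional libraries lay outside the WT range, on both sides of it. The 4 libraries with the most *Elovl4*, which were non-lesional 3, lesional 11, lesional 2 and WT 1, were also the 4 with the highest summed hyperplasia markers, at 1748, 34803, 14171 and 2249 CPM. Below them the 2 orders differed, since lesional 14 had rank 6 for the hyperplasia sum and rank 14 for *Elovl4*. Both patterns were noticed in these data and are given as values.

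Sebaceous gland markers summed to 2437 CPM in lesional 2 and 2443 CPM in lesional 11, against 1277 to 2415 CPM in the other 13 libraries. The highest of these, 2415 CPM, was non-lesional 3, so the libraries with the highest sebaceous sums also had the most *Elovl4*. The lowest sums were in WT 4, non-lesional 15, WT 13, lesional 14 and lesional 8 (1277, 1386, 1547, 1733 and 1759 CPM). Those libraries also had the least *Elovl4*, a pattern likewise noticed in these data. Adipocyte markers were at 1479 and 1261 CPM in lesional 2 and 11, against 1386 to 3542 CPM. Hair follicle markers, of which 2 of 10 were tested, were at 151 and 131 CPM, against 1386 CPM in WT 1, which stood apart, and 45.04 to 169 CPM in the other 12 libraries. The part of these cell types in the levels of the members was not tested.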
